A study of Homo sapiens with 12 samples.

Results

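The genes described here are 35 genes of the endoplasmic reticulum (ER) folding machinery and of the unfolded protein response, listed by their role in that pathway and not by a cut on measured values, though earlier results of these data were known when the list was made. They comprise chaperones, disulfide isomerases, J-domain proteins, secreted stress factors, the machinery of ER-associated degradation, parts of the translocon and the COPII coat, and the sensors with the transcription factor XBP1. Of the 35 genes, 32 had a probe set of their own, among 22395 genes with one in the whole table. Of these, 25 had a mean log2 level of at least 5 over all arrays and were tested, among 5820 tested genes. They were measured in a human line of lung adenocarcinoma, NCI-H1975, with a mutant EGFR that is resistant to erlotinib, an inhibitor of the EGFR kinase. The cells received 1 µM erlotinib (6, 12, 24 and 48 h), 3 µM quinacrine (6, 12 and 24 h), or both compounds at those doses (6, 12, 24 and 48 h, here called the combination), and a single array of untreated cells carried no time. Quinacrine is an acridine compound first used against malaria, which accumulates in acidic compartments of the cell. All groups were the same line grown in DMEM with 5% serum, and the labels name no vehicle control. The treatment protocol also mentions 5 µM quinacrine, while the label of each sample with quinacrine gives 3 µM, which is used here.

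The ER folds proteins that enter the secretory pathway. When unfolded proteins accumulate there, the chaperone HSPA5 (BiP) is drawn away from 3 sensors in the ER membrane, ERN1 (IRE1), EIF2AK3 (PERK) and ATF6. ERN1 splices the XBP1 mRNA so that it encodes an active transcription factor, ATF6 is cut to release a second one, and EIF2AK3 slows translation while favouring ATF4. These factors then raise the transcription of chaperones and of the genes that send misfolded proteins to the proteasome. Splicing of XBP1, cleavage of ATF6 and kinase activity are not read by an array of total transcript levels.

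The promoters were searched for exact matches to the DNA element through which ATF6 and XBP1 act. Stretches of them are given here for the 4 genes called in the main contrast below and for XBP1, the response's own transcription factor. RefSeq windows of 300 bases (250 before the gene's start and 50 after it, build GRCh38.p14) were matched for 31 of the 35 genes and searched on both strands. The ER stress element ERSE was searched as CCAAT, any 9 bases and CCACG, and the related ERSE-II as ATTGG, any 1 base and CCACG. Both are built from CCACG and CCAAT (whose complement is ATTGG), so they share their parts. ERSE was found in 7 of the 31 windows (HSPA5, HSP90B1, CALR, CANX, ERO1B, XBP1 and CRELD2) and in 0.0806% of all 27305 promoters. ERSE-II was found in 3 (HERPUD1, SDF2L1 and HYOU1) and in 0.0549% of all promoters. The shorter UPRE core TGACGTGG was found in DNAJC10 and HYOU1 and in 0.795% of promoters. The letters CCACG alone were in 37.9% of all promoters and in 21 of the 31 windows. Among the 4805 promoters of tested genes the shares were 0.166% for ERSE, 0.187% for ERSE-II, 1.08% for the UPRE core and 51.3% for CCACG. The sequences below run 5′ to 3′ on the strand of the gene, with the fixed letters of the element in capitals. They lie at chr9:125241371-125241429 (minus strand, HSPA5), chr16:56932005-56932055 (plus strand, HERPUD1), chr22:21642094-21642144 (plus strand, SDF2L1), chr22:28800583-28800641 (minus strand, XBP1) and chr14:81533854-81533953 (minus strand, SEL1L). The window of SEL1L held no exact match to either element, so its last 100 bases before the start are printed with no capitals.
HSPA5: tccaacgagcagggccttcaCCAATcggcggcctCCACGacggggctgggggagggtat
HERPUD1: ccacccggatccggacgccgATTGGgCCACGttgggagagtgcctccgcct
SDF2L1: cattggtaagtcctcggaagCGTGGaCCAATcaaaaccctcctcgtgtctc
XBP1: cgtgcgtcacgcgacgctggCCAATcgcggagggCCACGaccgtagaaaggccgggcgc
SEL1L: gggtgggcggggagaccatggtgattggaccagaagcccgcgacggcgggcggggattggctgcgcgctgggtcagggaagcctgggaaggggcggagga
In SDF2L1 the element lies on the opposite strand, so its complement is read. The matches in 3 further tested genes, each read 5′ to 3′ on the strand of the match, are given for comparison; HYOU1 holds its own in 2 places.
CALR: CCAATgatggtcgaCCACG
CANX: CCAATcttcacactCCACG
HYOU1: ATTGGaCCACG
A match is a description of letters and was not tested for binding. Matches had to be exact in the fixed letters, so a gene without a match is not shown to lack the element.

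Each treatment and time had 1 array, so no condition was replicated. The time points of a treatment served as its group, n counts time points, and no label ties the arrays to separate cultures. The p-values therefore reflect the spread among these 12 arrays alone, which may be technical. Bulk RNA does not tell apart fewer cells that express a gene and less of its RNA per cell. Values are log2 expression levels, compared only within a gene. The combination array at 6 h stood apart. Its interquartile range over all probe sets was 2.04, against 2.26 to 2.88 on the other arrays, and the median of all tested genes there was 0.21 below untreated on the log2 scale. Of 8 epithelial markers 5 had a mean of at least 5, with CDH1 at 10.3, EPCAM at 8.54 and KRT19 at 8.29, while KRT8 was at 2.81. Of 7 leukocyte markers 4 reached a mean of 5 (CD68, CD79A, CD74 and HLA-DRA), while the defining PTPRC, LYZ and CD3E were at 0.89, 0.90 and 1.31. Their summed log2 level was 30.86 untreated, 31.07 to 34.22 with erlotinib, 30.44 to 31.02 with quinacrine and 29.95 to 31.63 with the combination. It was lower with quinacrine alone than with erlotinib, while the combination overlapped with erlotinib. CD79A, CD74 and HLA-DRA were highest with erlotinib at 48 h (9.03, 7.15 and 7.02). The part of these markers in the results was not tested. All fibroblast and endothelial markers with a probe set had means under 3. Among plasma cell markers, which are of interest because plasma cells are rich in ER chaperones, only SDC1 (6.45) reached 5. The means of MZB1, JCHAIN, IRF4 and TNFRSF17 were under 2.

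The main contrast set the 7 arrays with quinacrine (alone or in the combination) against the 4 arrays with erlotinib alone. Treatment and time were factors in 1 fit of the 11 treated arrays, called the main contrast here. It asks which of the genes differ in cells given quinacrine from those given erlotinib alone. Every reference array held erlotinib, so for the 3 arrays of quinacrine alone the contrast also takes erlotinib away. Quinacrine alone had no 48 h array, so the 48 h gap between the combination and erlotinib also entered its estimate. Of the 25 tested genes 4 fell with quinacrine, namely HSPA5, SDF2L1, HERPUD1 and SEL1L, by 0.38 to 0.58 on the log2 scale, and 0 rose. Over all tested genes 6.65% were called at an adjusted p under 0.05 (limma, Benjamini-Hochberg), 3.78% of them lower and 2.87% higher. The median difference of the 25 genes was -0.003 on the log2 scale, against -0.008 over all tested genes, and 13 of the 25 were below 0.

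Among the chaperones, HSPA5, the ER's main HSP70 and the protein that holds the sensors inactive, was at 10.13 in the untreated array. It was at 10.19, 10.21, 9.88 and 9.96 with erlotinib (6, 12, 24 and 48 h), at 9.80, 9.57 and 9.49 with quinacrine (6, 12 and 24 h), and at 9.96, 9.74, 9.54 and 9.61 with the combination (6, 12, 24 and 48 h). The lowest levels were those of the 24 h arrays with quinacrine, and the ranges overlapped only through the combination array at 6 h, which equalled erlotinib at 48 h and exceeded erlotinib at 24 h. The group means were 10.06 ± 0.17 (SD, n = 4) with erlotinib, 9.62 ± 0.16 (SD, n = 3) with quinacrine and 9.71 ± 0.18 (SD, n = 4) with the combination. HSPA5 fell by 0.41 on the log2 scale (SE 0.08), 1.33-fold, with an adjusted p of 0.0260 (limma). HYOU1, an HSP110-type exchange factor for HSPA5 with ERSE-II in its promoter, stayed between 6.85 and 7.11 on every array, and its difference was -0.003 (95% interval -0.22 to 0.22). HSPA13, an HSP70-like ATPase of microsomes, had a difference of -0.34 (adjusted p 0.212, limma). Its lowest level, 4.94, was in the combination array at 6 h, while its other arrays with quinacrine lay between 5.44 and 6.03. HSP90B1 (GRP94) had a probe set only in common with another gene and has no value of its own here.

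The lectin chaperones CALR and CANX, which hold glycoproteins until they are folded, ranged over 11.14 to 11.38 and over 9.60 to 9.82 across all 12 arrays. Their differences with quinacrine were -0.04 (95% interval -0.22 to 0.15) for CALR and 0.02 (-0.16 to 0.19) for CANX. Both promoters hold ERSE, as that of HSPA5 does. Among the disulfide isomerases, which form and shuffle disulfide bonds, PDIA4 had a difference of -0.28 (adjusted p 0.165, limma), with 7.64 to 7.96 in the arrays with quinacrine and 7.88 to 8.26 with erlotinib. PDIA6 had -0.02 and PDIA5 0.03. PDIA3, P4HB and the oxidase ERO1B had means of 1.41, 4.16 and 0.90 and were not tested. Those of PDIA3 and ERO1B were near or below the median of all probe sets, which was 1.39 to 1.64 per array. TXNDC5 had no named probe set.

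SDF2L1, a partner of the J-domain protein DNAJB11 that keeps misfolded proteins from aggregating, was at 5.49 in the untreated array. Its levels were 5.72, 5.36, 5.52 and 5.28 with erlotinib, 5.24, 5.15 and 5.14 with quinacrine, and 5.12, 5.13, 5.09 and 4.93 with the combination. All 7 arrays with quinacrine lay below all 5 without it, and the lowest was the combination at 48 h. SDF2L1 fell by 0.38 on the log2 scale (SE 0.09), 1.30-fold, with an adjusted p of 0.0385 (limma). The J-domain proteins themselves, which deliver substrates to HSPA5 and start its ATPase cycle, gave 0 calls among 3 tested. The differences were 0.06 for DNAJB11, 0.07 for DNAJC10 and 0.17 for DNAJC3 (adjusted p 0.400, limma). DNAJC3 was at 5.81 untreated, at 5.86, 6.12, 5.41 and 5.79 with erlotinib, at 6.26, 6.09 and 5.87 with quinacrine, and at 5.80, 5.94, 5.85 and 5.85 with the combination. DNAJB9 (ERdj4), a target of spliced XBP1, had a mean of 3.35 and was not tested. It was at 3.10 untreated, 3.17 to 3.31 with erlotinib, 4.06, 3.26 and 3.24 with quinacrine, and 3.59, 3.34, 3.27 and 3.43 with the combination. Both of its highest levels were those of the 6 h arrays with quinacrine.

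MANF, a secreted factor released on ER stress, was at 6.10 untreated, at 6.17, 6.05, 5.64 and 5.77 with erlotinib, at 5.77, 5.70 and 5.54 with quinacrine, and at 5.57, 5.76, 5.62 and 5.76 with the combination. The late erlotinib arrays lay inside the range of the arrays with quinacrine, and the difference was -0.24 (SE 0.11, adjusted p 0.216, limma). CRELD2, the other such factor, had a mean of 2.56 and was not tested.

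In ER-associated degradation, which draws misfolded proteins out of the ER to the proteasome, 2 of 6 tested genes fell. HERPUD1, which gathers the ubiquitin ligase complex at the ER membrane, was at 6.36 untreated. It was at 6.47, 6.12, 6.08 and 6.37 with erlotinib, at 5.86, 5.78 and 5.58 with quinacrine, and at 6.01, 5.80, 5.50 and 5.31 with the combination. All 7 arrays with quinacrine were below the other 5, and in quinacrine and the combination alike the earliest array was the highest and the latest the lowest. HERPUD1 fell by 0.58 on the log2 scale (SE 0.12, 95% interval -0.85 to -0.32), with an adjusted p of 0.0258 (limma). On the 6, 12 and 24 h arrays alone its difference was -0.47 (adjusted p 0.0509, limma). SEL1L, the scaffold of the SYVN1 (HRD1) ligase, was at 7.23 untreated, at 7.38, 7.18, 7.12 and 7.39 with erlotinib, at 6.68, 6.68 and 7.01 with quinacrine, and at 6.65, 6.78, 6.89 and 7.04 with the combination. Here too the arrays with quinacrine lay below all others, but they were lowest early and closest to the rest late. SEL1L fell by 0.43 on the log2 scale (SE 0.10), 1.34-fold, with an adjusted p of 0.0477 (limma).

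SYVN1, the ligase itself, was at 5.84 untreated, at 5.92, 5.83, 5.80 and 5.35 with erlotinib, at 5.83, 6.22 and 5.78 with quinacrine, and at 5.31, 6.00, 5.82 and 5.89 with the combination. Its ranges overlapped throughout, and its difference was 0.10 (adjusted p 0.732, limma). DERL2, a membrane protein of the channel through which substrates leave, had a difference of 0.42, opposite in sign to HERPUD1 and SEL1L (SE 0.15, adjusted p 0.127, limma). It was at 5.70 to 6.19 with erlotinib, 6.17 to 6.34 with quinacrine and 6.39 to 6.45 with the combination after 6 h, where it was at 5.93. With array medians set equal, with cyclic loess or with array weights, DERL2 passed the threshold as higher and the 4 lower genes were still called, so 1 rose and 4 fell. The share called over all tested genes rose as well, from 6.65% to 11.9%, 13% and 13.8% in that order, with higher and lower genes in similar numbers. DERL1 (0.04) and EDEM1 (-0.04) had differences near 0, DERL3 had a mean of 3.92 and was not tested, and EDEM2 had no probe set of its own.

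The translocon subunits SEC61A1 and SEC61B, which form the channel into the ER, had differences of 0.01 and 0.12. SEC24D, a cargo adaptor of the COPII coat that carries proteins out of the ER, had -0.11. It was at 6.62 untreated, at 6.69, 6.77, 6.80 and 6.97 with erlotinib, at 6.68, 6.53 and 6.79 with quinacrine, and at 6.77, 6.88, 6.74 and 6.53 with the combination. The ranges overlapped and 0 of these 3 genes were called.

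Of the sensors and XBP1, 3 were tested and 0 passed the threshold. XBP1 was at 7.42 untreated, at 7.36, 7.26, 7.16 and 7.26 with erlotinib, at 6.92, 6.73 and 7.02 with quinacrine, and at 6.78, 6.94, 7.07 and 7.18 with the combination. Its arrays with quinacrine lay below those of erlotinib except at 48 h of the combination, and the difference was -0.30 (SE 0.10, adjusted p 0.124, limma). ATF6 was at 7.45 untreated, at 7.72, 7.51, 7.69 and 7.82 with erlotinib, at 7.85, 7.79 and 7.98 with quinacrine, and at 7.77, 7.94, 7.98 and 7.89 with the combination. Its untreated array was the lowest of the 12, and the difference with quinacrine was 0.21 (SE 0.09, adjusted p 0.198, limma). EIF2AK3 was at 6.06 untreated, at 6.17, 6.30, 5.57 and 6.42 with erlotinib, at 6.75, 6.78 and 6.56 with quinacrine, and at 5.78, 6.66, 6.53 and 6.36 with the combination. The 3 quinacrine arrays lay above all erlotinib arrays, and the combination overlapped with them, for a difference of 0.43 (SE 0.18, adjusted p 0.196, limma). ERN1 had a mean of 4.09 and was not tested. It was at 3.93 untreated, 4.11 to 4.43 with erlotinib, 3.74, 3.58 and 4.61 with quinacrine, and 2.62, 4.23, 4.57 and 4.61 with the combination, so that the late arrays with quinacrine were higher than the early ones.

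**Figure D1:**
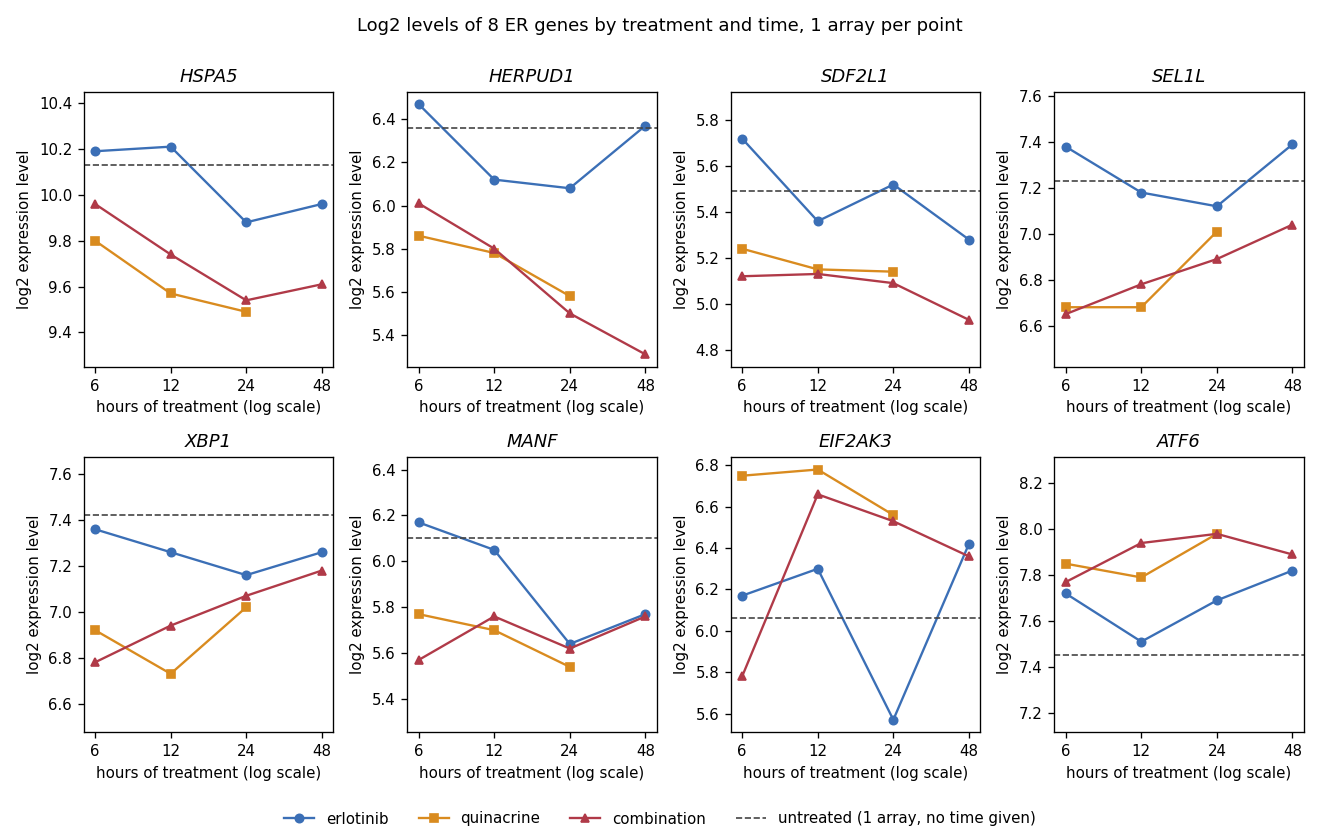
Log2 level (y axis) of selected genes against hours of treatment (x axis), with 1 point per array, a line per treatment and the untreated array as a horizontal line. HERPUD1 with quinacrine or the combination stays between 5.31 and 6.01, below erlotinib alone at 6.08 to 6.47.

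Counted without a test, 3 of the 25 genes (SDF2L1, HERPUD1 and SEL1L) had all 7 arrays with quinacrine below all 4 with erlotinib alone, against 5.62% of all tested genes. No member had them all above, against 2.78% of all genes. The same 3 genes stayed below when the untreated array was added to the erlotinib arrays (4.48% of all genes). The 4 calls depended on single arrays. Each of the 4 kept its sign when any 1 of the 11 arrays was left out, with differences of -0.68 to -0.47 for HERPUD1, -0.45 to -0.36 for HSPA5, -0.43 to -0.31 for SDF2L1 and -0.52 to -0.32 for SEL1L. The number of members called then fell to 0 without the erlotinib array at 12, 24 or 48 h, or without any of the quinacrine arrays. It also fell to 0 without the combination array at 24 or 48 h. In these fits 0.43% to 2.97% of all tested genes were called. Leaving out either 48 h array gave the same fit as the 6, 12 and 24 h arrays alone, so these are not separate checks. The remaining 48 h array was then fitted by its own time term. The number of members called was 3 without erlotinib at 6 h (HERPUD1 and HSPA5 lower, DERL2 higher, with 8.85% of all tested genes called). It was 5 without the combination at 6 h (the 4 genes, and DERL2 higher; 12.1%) and 2 without the combination at 12 h (HERPUD1 and HSPA5; 4.91%). Without both arrays of the smallest spread (the combination at 6 h and erlotinib at 12 h) it was 2, HERPUD1 and SDF2L1 (7.16%), and with the 6, 12 and 24 h arrays alone it was 0, with adjusted p-values (limma) of 0.0509 for HERPUD1 to 0.0942 for SEL1L.

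**Figure D2:**
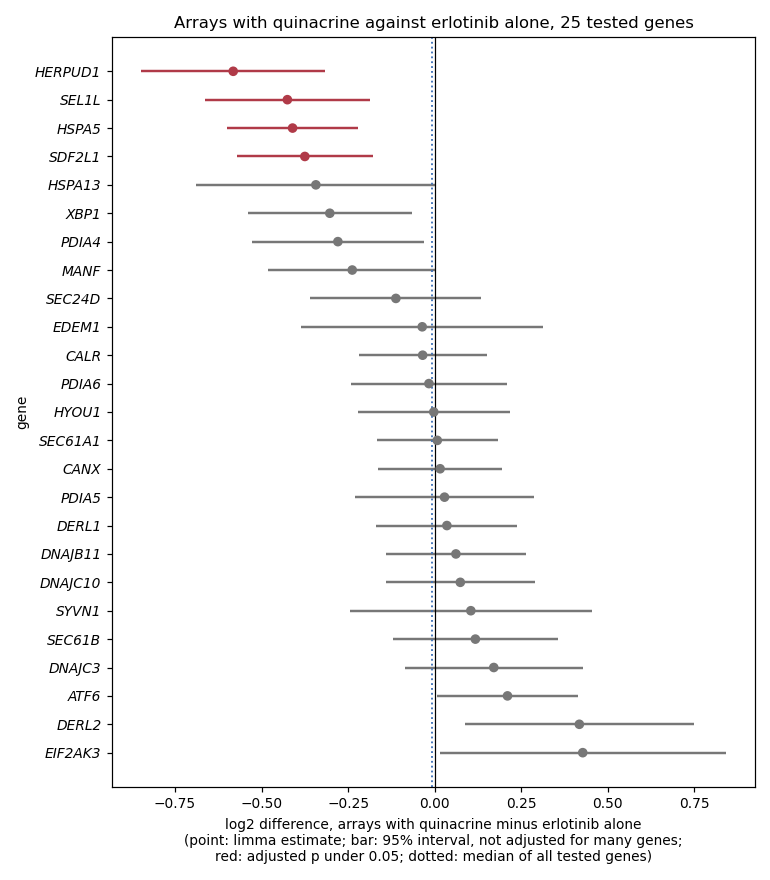
Log2 difference (x axis) between arrays with quinacrine and erlotinib alone for each of the 25 tested genes (y axis), with its 95% interval. The 4 genes that passed the threshold lie between -0.58 and -0.38, while CALR, CANX and HYOU1 lie close to 0.

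Read with the promoters, 7 of the tested genes held ERSE or ERSE-II (CALR, CANX, HERPUD1, HSPA5, HYOU1, SDF2L1 and XBP1). In the same contrast 6 of these 7 were below 0, with a median of -0.30 and a range of -0.58 to 0.02, and 3 were called. Over all tested genes 51.5% were below 0 and 6.65% were called. Among the 16 tested genes with a window and no match, 6 were below 0, the median was 0.04 and 1 was called (SEL1L). The genes with an element did not move alike: HERPUD1, HSPA5 and SDF2L1 fell, XBP1 missed the threshold, and CALR, CANX and HYOU1 had differences within 0.04 of 0. A part of the element in these differences was not tested.

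The combination was then compared with erlotinib alone at the same 4 times, which asks what quinacrine adds to erlotinib. These arrays also entered the contrast above, so the values are not separate support. HERPUD1 fell, 1.52-fold (log2 difference -0.605, SE 0.13, adjusted p 0.0427, limma), and was the 1 member of 25 called, where 3.64% of all tested genes were called (2.22% lower and 1.43% higher). At 6, 12, 24 and 48 h the combination stood at -0.46, -0.32, -0.58 and -1.06 from erlotinib for HERPUD1, at -0.60, -0.23, -0.43 and -0.35 for SDF2L1, at -0.23, -0.47, -0.34 and -0.35 for HSPA5, and at -0.73, -0.40, -0.23 and -0.35 for SEL1L. All 4 genes were lower at every time, and all 4 times of the combination were below all 4 of erlotinib for SDF2L1, HERPUD1 and SEL1L (7.94% of all tested genes). The adjusted p-values were 0.0594 for SDF2L1, 0.0817 for HSPA5 and 0.0879 for SEL1L (limma). XBP1 (-0.58, -0.32, -0.09 and -0.08) and MANF (-0.60, -0.29, -0.02 and -0.01) had their widest gaps at 6 h. There the median of all tested genes was also lower in the combination, by -0.27, against 0.14, 0.04 and -0.02 at the later times. DERL2 was at -0.26 at 6 h and at 0.66, 0.75 and 0.53 afterwards. The HERPUD1 call was lost when any 1 array other than the combination at 6 h was left out (adjusted p 0.0372 to 0.159, limma, over the 11 arrays). With the array medians set equal, 1 member rose (DERL2) and 3 fell (HERPUD1, SDF2L1 and SEL1L), and the split over all tested genes went from 83 higher and 129 lower to 223 and 216 (7.54% called).

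Quinacrine alone against erlotinib alone gave 0 called among the 25 (limma). Over all tested genes 1.13% were called, 0.619% lower and 0.515% higher. At an unadjusted p under 0.05 (limma) there were 7 members (28%), against 17.6% of all tested genes. The smallest adjusted p was that of HSPA5, 0.0658, for a difference of -0.47 (SE 0.10). HERPUD1 had -0.56 (adjusted p 0.0949), SDF2L1 -0.35 and SEL1L -0.42 (both 0.140), and EIF2AK3 0.64 (0.191, limma). Quinacrine alone had no 48 h array, so the 48 h gap between the combination and erlotinib also entered these estimates. On the 6, 12 and 24 h arrays alone HERPUD1 had -0.48 (adjusted p 0.0967, limma). At 6, 12 and 24 h quinacrine stood at -0.39, -0.64 and -0.39 from erlotinib for HSPA5, and at 0.58, 0.48 and 0.99 for EIF2AK3. The 3 quinacrine arrays were below all 4 of erlotinib for 6 members (HSPA5, HSPA13, SDF2L1, HERPUD1, SEL1L and XBP1; 10.1% of all tested genes) and above them for 1 (EIF2AK3; 9.33%). With array weights 4 members were called, HERPUD1, HSPA5 and SDF2L1 lower and DERL2 higher, where 11.7% of all tested genes were called. Without the erlotinib array at 6 h there were 2 (4.42% of all genes), and without the combination array at 6 h there was 1 (4.95%).

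Adding erlotinib to quinacrine gave 0 called among the 25 members, as among all 5820 tested genes (0%, limma), with 47 genes and none of the 25 at an unadjusted p under 0.05. The 95% interval, not adjusted for many genes, reached 0.30 to either side on the log2 scale at the median of the 25. Differences of about that size could therefore go uncalled. For HSPA5 the difference was 0.13 (95% interval -0.11 to 0.36), for HERPUD1 -0.05 (-0.38 to 0.28) and for EIF2AK3 -0.42 (-0.93 to 0.09).

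**Figure D3:**
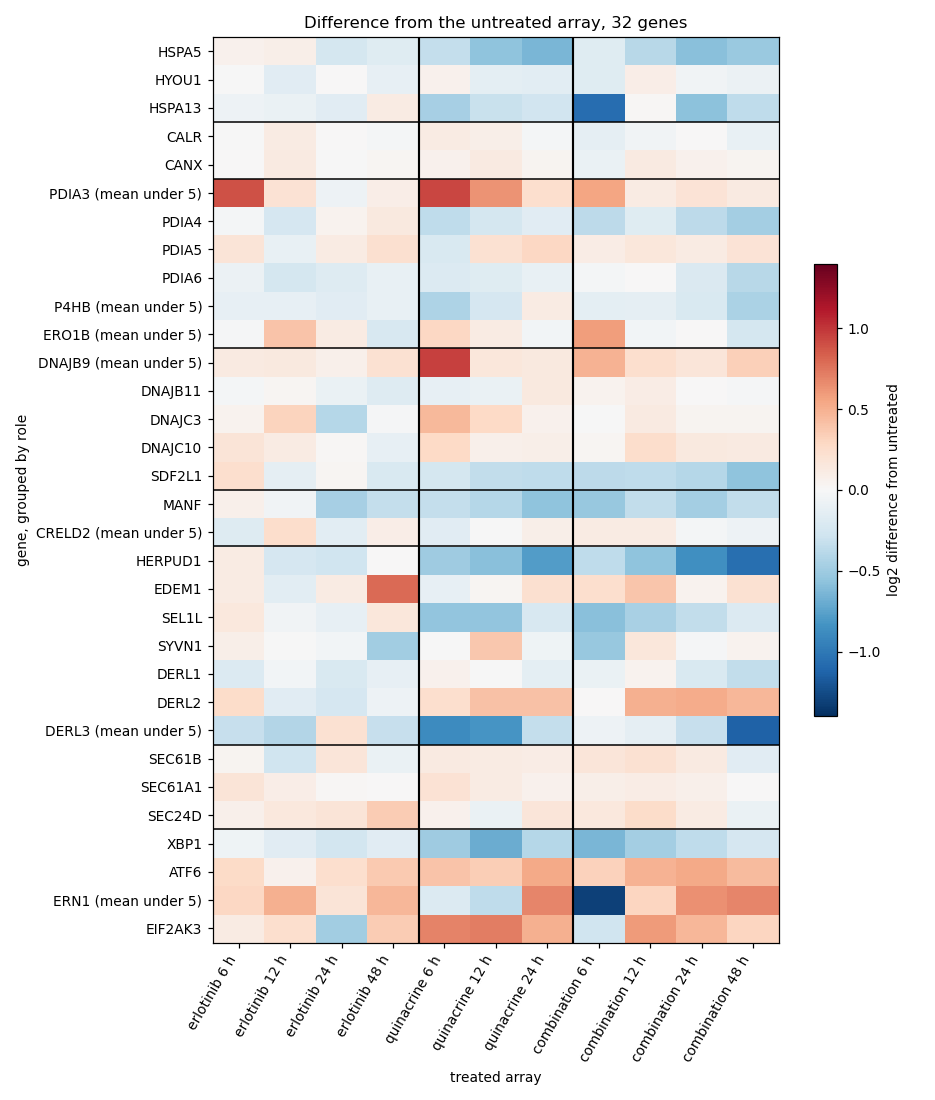
Log2 difference of each treated array from the untreated array for the 32 genes with a probe set (y axis) on each treated array (x axis), as a colour scale. HSPA5 and HERPUD1 are among the lowest in the 24 h arrays with quinacrine, while EIF2AK3 stands 1.5-fold or more higher in the quinacrine arrays at 6 and 12 h.

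Against the single untreated array, which was assumed to vary like the treated ones, 0 of the 25 members were called for any treatment (limma). Over all tested genes 0% were called for erlotinib, 0.0344% for quinacrine and 0.0515% for the combination (0.0344% lower and 0.0172% higher). At an unadjusted p under 0.05 there were 0 members for erlotinib (and 144 genes in all), 5 for quinacrine and 4 for the combination. These were 20% and 16% of the members, against 10.3% and 11.2% of all tested genes for quinacrine and the combination. With erlotinib the members of the smallest p were ATF6 (0.24), MANF (-0.19) and SEC24D (0.19), all with an adjusted p of 0.999. With quinacrine XBP1 had -0.53 (SE 0.18, adjusted p 0.325), ATF6 0.42 and HSPA5 -0.51. With the combination ATF6 had 0.45 (SE 0.15, adjusted p 0.343), HERPUD1 -0.705 and SDF2L1 -0.42 (limma). With array weights 4 members were called for quinacrine (HERPUD1, HSPA5, SEL1L and XBP1, all lower) where 8.49% of all tested genes were called, and 5 for the combination (HERPUD1, HSPA5 and SDF2L1 lower, ATF6 and DERL2 higher), where 13.9% were.

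Array by array, few members stood 1.5-fold or more from untreated. With erlotinib there were 0 at 6 h (1.82% of all tested genes), 0 at 12 h (5.86%), 0 at 24 h (5.41%) and 1 at 48 h, EDEM1, higher (10.3%). With quinacrine there was 1 at 6 h, EIF2AK3, higher (12.6%), 2 at 12 h, EIF2AK3 higher and XBP1 lower (11.9%), and 2 at 24 h, HSPA5 and HERPUD1, lower (12.9%). With the combination there were 2 at 6 h, HSPA13 and XBP1, lower (22.6%), 1 at 12 h, EIF2AK3, higher (10.6%), 2 at 24 h, HSPA5 and HERPUD1, lower (12.3%), and 1 at 48 h, HERPUD1, lower (13.4%). HSPA5, HERPUD1 and SDF2L1, called as lower in the main contrast of the same arrays, did not reach 1.5-fold above untreated on any array. That call came from these arrays, so this is no separate result on the response. DNAJB9, which lay under the level for testing, passed 1.5-fold above untreated in quinacrine at 6 h (4.06 against 3.10).

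Along time, a slope per doubling of hours was fitted over the 11 treated arrays. Of the 25 members 0 were called (limma), where 2.3% of all tested genes were (0.275% lower and 2.03% higher). An unadjusted p under 0.05 (limma) was found for 3 members (12%), against 22.7% of all tested genes. HSPA5 had a slope of -0.12 per doubling (SE 0.04, adjusted p 0.0997), HERPUD1 -0.14 (0.143), SDF2L1 -0.08 (0.220) and SEL1L 0.08 (0.297, limma). HSPA5 was called when the prior variance followed the level, and SDF2L1 when arrays were rescaled. The slopes of the combination and erlotinib were not called as different for any member or any gene (0%, limma; 1 member and 770 genes at an unadjusted p under 0.05). The member was SYVN1, whose slope was 0.33 higher with the combination (SE 0.13, adjusted p 0.333). Slope differences were 0.17 for XBP1, 0.20 for MANF and -0.21 for HERPUD1.

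The rest of the pathway was taken from 129 further genes, of which 89 were tested. In the contrast of arrays with quinacrine against erlotinib alone 1 of the 89 fell and 0 rose (6.65% of all tested genes called, limma), with a median of -0.02. PPP1R15A, which missed the threshold, passed it as higher with cyclic loess (adjusted p 0.0223), median centring (0.0177), array weights (0.0145) and without the combination array at 6 h (0.0289, limma). The gene that fell was SSR1, a subunit of the translocon-associated complex. It was at 8.31 untreated, 7.92 to 8.29 with erlotinib, 7.58 to 7.90 with quinacrine and 7.44 to 7.93 with the combination, overlapping only in the combination at 6 h. Its difference was -0.40 (SE 0.08, adjusted p 0.0280, limma), and the call was lost without any 1 of 7 of the 11 arrays. By list, 0 of 14 genes of folding and disulfide formation were called, 0 of 13 of glycan processing, 0 of 11 of ER-associated degradation, 1 of 15 of translocation, 0 of 16 of the COPII coat and cargo receptors, 0 of 9 of the PERK and ATF4 branch, and 0 of 11 of ATF6 and IRE1 regulation. The smallest p-values of the lists without a call were those of RCN2 (-0.33), a calcium-binding protein of the ER lumen, UGGT1 (-0.35), the glucosyltransferase that senses unfolded glycoproteins, UFD1 (-0.28), SEC16A (-0.53), which organises ER exit sites, PPP1R15A (0.86) and WFS1 (-0.41). Their adjusted p-values were 0.0505 for PPP1R15A to 0.125 for UFD1 (limma).

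In the PERK branch PPP1R15A and ATF4 had differences of opposite sign. PPP1R15A (GADD34), the phosphatase subunit that restores translation, was at 6.22 untreated, at 6.15, 5.67, 6.11 and 5.77 with erlotinib, at 6.18, 6.85 and 6.54 with quinacrine, and at 6.51, 6.73, 6.90 and 7.68 with the combination. All combination arrays lay above those of erlotinib, as was so for 4% of all tested genes. The mean difference was 1.03 (SE 0.24, adjusted p 0.0554, limma), and the contrast passed the threshold without the erlotinib or the combination array at 6 h. ATF4, the transcription factor translated when PERK is active, was at 6.51 untreated, at 6.64, 6.66, 6.81 and 6.91 with erlotinib, at 6.05, 6.10 and 6.40 with quinacrine, and at 5.77, 6.36, 6.55 and 6.79 with the combination. Its transcript level with quinacrine was -0.43 from erlotinib (SE 0.12, adjusted p 0.0688, limma). DDIT3 (CHOP), a factor of prolonged ER stress, had a mean of 3.62 and was not tested. It was at 3.67 untreated, 3.16 to 3.48 with erlotinib, 3.30, 3.60 and 4.35 with quinacrine, and 3.04, 3.37, 4.29 and 4.78 with the combination. Its 3 highest levels were those of the 24 and 48 h arrays with quinacrine, the same arrays that held the 3 lowest levels of HERPUD1. CEBPB, a partner of DDIT3, rose along time by 0.22 per doubling (SE 0.04, adjusted p 0.0324, limma), the 1 call among the 89 genes in that trend. It was at 5.76 to 6.06 with erlotinib, 5.90 to 6.60 with quinacrine and 5.78 to 6.66 with the combination, highest at the last time of each, and the call was lost without any 1 of 7 of the 11 arrays.

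**Figure D4:**
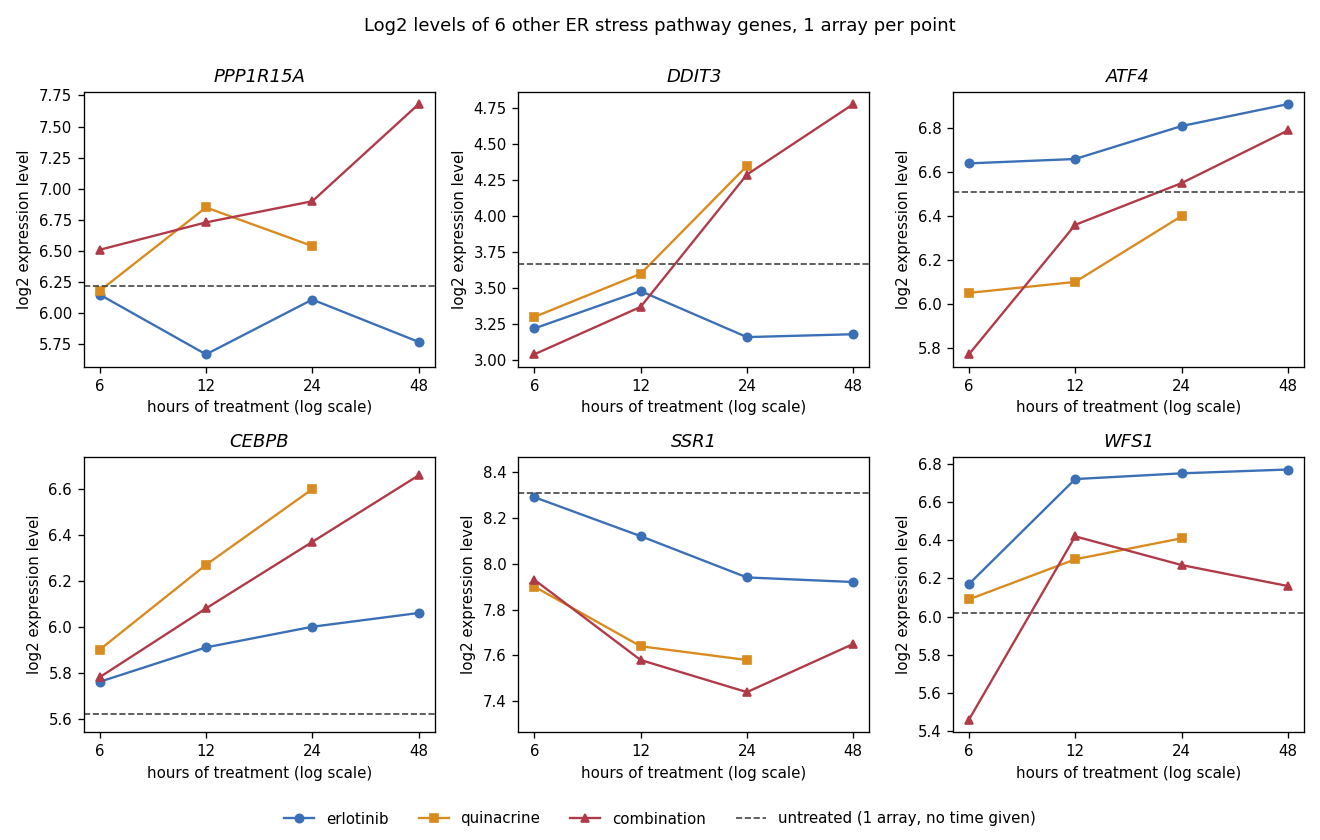
Log2 level (y axis) of other genes of the pathway against hours of treatment (x axis), 1 point per array and a line per treatment, with the untreated array as a horizontal line. PPP1R15A reaches 7.68 in the combination at 48 h against 5.77 with erlotinib, and DDIT3 reaches 4.78 against 3.18.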

How the data were processed

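RNA of 12 samples was read on Affymetrix Human Gene 2.1 ST arrays. The deposited values are log2 expression levels per probe set, made by the authors with Affymetrix Expression Console 1.30 and RMA, per the submitters' processing notes. They were used as deposited. The arrays were not on 1 distribution, with medians over all probe sets of 1.39 to 1.64 and interquartile ranges of 2.04 to 2.88. Of 53617 probe sets 23871 had 1 gene symbol, 1842 several and 27904 none, and only the first were named (90 symbols updated through Entrez IDs). A gene took its probe set of the highest mean, and genes with a mean of at least 5 were tested. The mean covers treated arrays, so a gene could pass through them. Arrays carry no depth; their number limits the precision.

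Tests used limma 3.58.1 (R 4.3.3). P-values were adjusted by Benjamini-Hochberg over the 5820 tested genes, with a threshold of 0.05, and the procedure was tested on simulated data. The 3 treated groups were fitted with treatment and time as factors (5 residual degrees of freedom), so the spread is the departure of arrays from additive effects and not replicate error. The comparison with untreated used group means, without time. Named in full were members past the threshold, the 3 of the smallest p per comparison and 8 core genes, and from each further list the genes called or, failing these, those of the smallest p. The members and lists were chosen with earlier results of these data known. Scaling, level filter, choice of probe set, prior, array weights, the time term and single arrays were varied.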

Additional observations from a re-analysis of the deposited data

Results flagged for a closer look

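Of 64 checks for 1 array far from the other arrays of its treatment (gap to the nearest divided by the range, against Dixon's 95% critical value), 2 passed, and chance flags about 1 in 20. DERL2 was at 5.93 in the combination at 6 h and at 6.39 to 6.45 at the later times (gap share 0.885). The same array had the smallest spread of all values. DERL3, which was too low to be tested, was at 4.51 with erlotinib at 24 h and at 3.89 to 3.98 at the other times (gap share 0.855).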

How the results depend on the processing

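Values are numbers of members called. Percentages in brackets, where given, are the share of all genes (or probe sets) tested in the same setting that were called. For arrays with quinacrine against erlotinib alone there were 4 as reported (6.65%). There were 0 with no level filter (0.701%) and with every probe set tested (0.183%). The 6, 12 and 24 h arrays alone and only the groups compared were the same fit and gave 0 (2.97%). There were 2 with a mean of at least 4 (4.72%) or 6 (9.9%), and 2 without a time term (7.03%). HERPUD1 and SDF2L1, with means of 5.94 and 5.26, were not tested at a mean of at least 6. Without both the combination at 6 h and erlotinib at 12 h (chosen after seeing the data) there were 2 (7.16%). Leaving out each array gave 0 to 5 (0.43% to 12.1%). Leaving out either 48 h array gave the fit of the 6, 12 and 24 h arrays again. For the combination against erlotinib there was 1 as reported (3.64%). There were 0 with no filter (0.228%), a mean of at least 4 (2.25%) or every probe set (0.0168%). The early arrays alone (0.584%), no time term (2.78%) and only the groups compared (0.103%) also gave 0. There were 4 with cyclic loess (7.92%) or median centring (7.54%), 2 with a trended robust prior (5.26%) and 3 with array weights (6.53%). With arrays left out there were 0 to 2 (0.103% to 5.53%). For quinacrine against erlotinib there were 0 as reported (1.13%). There was 1 with a mean of at least 6 (4.14%), cyclic loess (5.46%) or a trended prior (2.96%). There were 4 with array weights (11.7%), and 0 to 2 with arrays left out (0% to 4.95%). Array weights gave 4 for quinacrine (8.49%) and 5 for the combination (13.9%) against untreated. The time trend had 1 with cyclic loess (3.35%), median centring (3.97%) or a trended prior (3.68%), against 0 as reported (2.3%). Members 1.5-fold from untreated became 2 for erlotinib at 48 h, 1 for the combination at 6 h and 2 for the combination at 48 h with cyclic loess, and 3 for the last with median centring. The causes were not tested. Among gene-level values 2098 kept their side of the threshold, 75 lost it, 26 gained it and 0 reversed. Most of those that kept it were uncalled in both fits. Only the 4 calls of the main contrast and the 1 of the combination against erlotinib could be lost. All 75 losses fell on these few calls, so the 2098 do not show that the calls were stable. Leaving out the untreated array could not be run. Labels carry no replicate numbers, and time is already a term of the treated fit. No condition was replicated. At the median of the members the 95% interval reached 0.24 to 0.30 to either side on the log2 scale between treatments. Against untreated it reached 0.38 to 0.39. These intervals are not adjusted for many genes, and larger differences also went uncalled, such as those of DERL2 and EIF2AK3 in the main contrast.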
